A study of Saccharomyces cerevisiae with 15 samples.

Results

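The comparison is of phenylalanine with leucine as the sole nitrogen source of Saccharomyces cerevisiae, and its members are the 6 of 15 arrays whose titles name these sources, 3 arrays each. The other 9 arrays hold 3 each of asparagine, proline and methionine samples. All came from CEN.PK113-7D, a haploid laboratory strain labelled MATa and prototrophic, grown at 30 °C and pH 5.0 in aerobic chemostats diluted at 0.10 per hour. A chemostat holds the growth rate fixed while 1 nutrient, here glucose at 7.5 g/l in the feed, limits growth. Every medium carried 6.6 g/l potassium sulfate. Phenylalanine was fed at 5.0 g/l and leucine at 10.0 g/l, so the identity of the amino acid and its concentration cannot be told apart. Whether the triplicates were separate cultures is not said in the labels, and the spread behind each p-value may therefore be technical.

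Yeast takes nitrogen from phenylalanine and leucine by the same route, the Ehrlich pathway. An aminotransferase first moves the amino group onto 2-oxoglutarate, a decarboxylase then shortens the remaining keto acid to an aldehyde, and the aldehyde is reduced to a fusel alcohol or oxidised to a fusel acid. Phenylalanine yields phenylethanol and phenylacetate, and leucine yields isoamyl alcohol and isovalerate. The carbon skeletons are not used for growth to any large extent, so both amino acids serve as nitrogen sources alone. The transcriptional activator Aro80 responds to aromatic amino acids. Leucine synthesis is under the activator Leu3, which needs the pathway intermediate isopropylmalate, and Gcn4 activates amino acid synthesis in general when charged transfer RNA runs short.

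Values are signals, 1 linear intensity per probe set and array, and a probe set is a group of oligonucleotides for 1 transcript. Of 9275 probe sets, 7445 were bright enough to test. Signals correlated across probe sets at 0.968 to 0.982 within leucine, 0.951 to 0.966 within phenylalanine and 0.946 to 0.960 between them, where probe sets are not independent replicates. The median signal of an array was 48.8 to 52.9 with leucine and 38.4 to 47.7 with phenylalanine. The median SD of log2 signal over the 3 arrays was 0.188 with leucine and 0.304 with phenylalanine. The run settings of phenylalanine 1 record it as a second run, made once the scanner had been serviced. Actin signal at the 3' end over that at the 5' end, which gauges how intact the RNA was, stood at 2.11 ± 0.285 (SD, n = 3) with leucine and 2.81 ± 0.697 with phenylalanine. The same ratio for SPT15 went the other way, at 3.86 ± 0.741 with leucine and 2.99 ± 1.10 with phenylalanine. The signal of the hybridisation controls was 483 ± 198 and 907 ± 579 in the same order, highest on phenylalanine 3. The part of these measures in the differences was not tested beyond the fits with each as a covariate. Of 7 marker genes of MATa cells the means ran from 19.4 (ASG7) to 1209 (MFA1) with leucine and from 31.4 to 2346 with phenylalanine. Of 4 MATalpha markers they ran from 6.73 (MF(ALPHA)2) to 103 (SAG1) with leucine and from 10.2 to 113 with phenylalanine, and levels of different probe sets are not compared.

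The question was which transcripts separate the sources. Of 7445 probe sets, 959 (12.9%) differed by limma's moderated test at an adjusted p under 0.05, 323 (4.34%) higher and 636 (8.54%) lower with phenylalanine. Of these, 238 (3.2%) differed at least 2-fold, 83 (1.11%) higher and 155 (2.08%) lower, and 25 differed at least 4-fold, 10 higher and 15 lower. The 3 phenylalanine and 3 leucine arrays did not overlap for 1947 probe sets (26.2%), and for 922 of the 959. A fit on these 6 arrays alone, which estimates the spread from fewer arrays, called 293, of which 290 were among the 959. How the calls divided into higher and lower depended on scaling. Quantile normalization gave 346 higher and 352 lower calls, while centring every array on its median gave 688 and 271. Of the 959, 565 and 594 were also called under these, all of them in the same direction. The median log2 difference, phenylalanine minus leucine, of all probe sets tested was -0.14 as deposited, 0.09 after median centring and -0.01 after quantile normalization, and values below are read against it. As deposited it was -0.22 among the 2482 dimmest probe sets, -0.20 among the 2481 of middle signal and -0.02 among the 2482 brightest. Higher calls numbered 44, 57 and 222 in the same order, and lower calls 95, 307 and 234. Among genes, each represented by 1 probe set, 811 of 5384 (15.1%) were called, 275 (5.11%) higher and 536 (9.96%) lower with phenylalanine, which is the background for the counts of gene groups that follow. This background is not matched to the signal of each group, and higher calls were most frequent among bright probe sets.

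**Figure D1:**
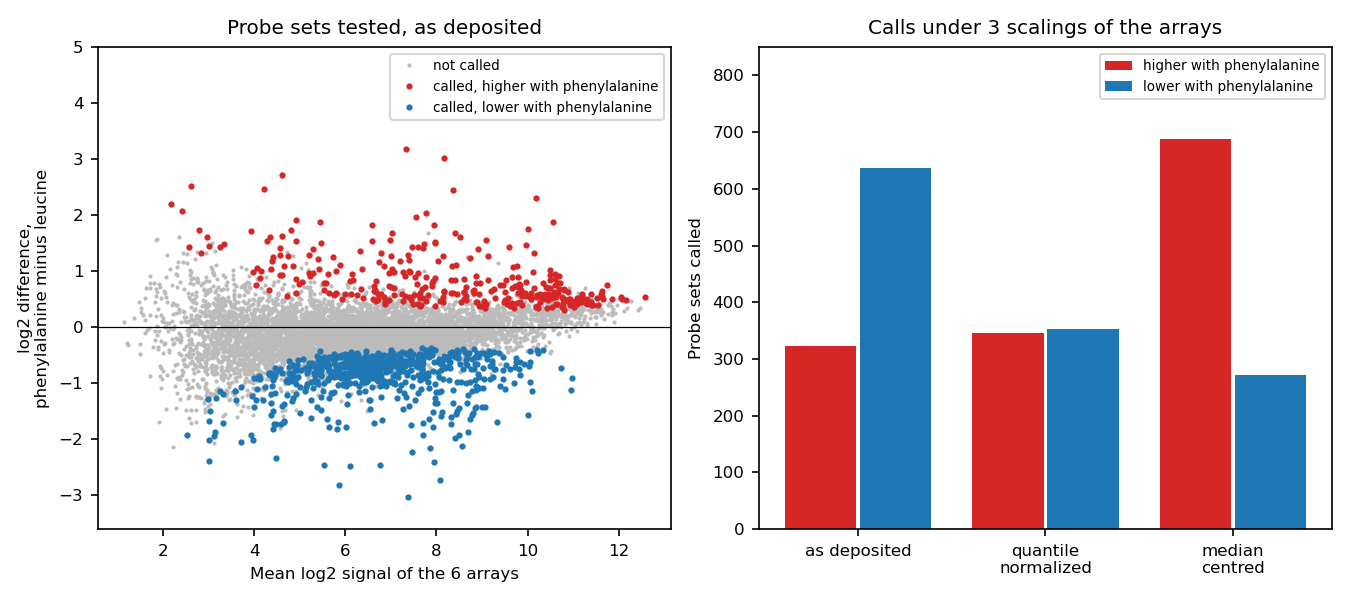
Left, the log2 difference of each of 7445 probe sets (phenylalanine minus leucine, vertical) against its mean log2 signal over the 6 arrays (horizontal), with called probe sets in colour. Right, the number of probe sets called in each direction as deposited (323 higher, 636 lower), after quantile normalization (346 and 352) and after centring on the median (688 and 271).

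Of the genes for the first steps of phenylalanine use and their activator, ARO80, ARO9 and ARO10 were higher with phenylalanine. ARO80 encodes the activator of the aromatic branch. Its signal was 18.7, 17.7 and 15.2 on the 3 leucine arrays and 34.3, 41.8 and 49.2 on the 3 phenylalanine arrays. The groups did not overlap, and the log2 difference, phenylalanine minus leucine, was 1.27 ± 0.22, adjusted p = 0.0013, where ± beside a log2 difference is its standard error from limma and ± beside a signal is an SD over 3 arrays. Its level was 15.3 ± 1.12 with asparagine, 11.2 ± 0.603 with proline and 15.5 ± 3.35 with methionine, so phenylalanine was the highest of the 5 sources and leucine lay near asparagine and methionine. ARO9, the broad aminotransferase that Aro80 activates, had signals of 1206, 1236 and 976 with leucine and 1840.1, 1643 and 2027 with phenylalanine. The difference was 0.69 ± 0.12, adjusted p = 0.0012, with no overlap, against 316 ± 25.6 with asparagine and 172 ± 8.82 with proline. With methionine ARO9 was 822.5, 852 and 778. ARO10, the decarboxylase of aromatic and branched keto acids, stood at 1042, 1216 and 880.3 with leucine and 1778, 2035 and 2176 with phenylalanine. It was 1.92-fold higher with phenylalanine (0.94 ± 0.17, adjusted p = 0.0016), while both sources lay far above asparagine (60.9 ± 10.6) and proline (37.2 ± 6.85). So did methionine, with ARO10 at 978, 852 and 859.

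The other aromatic aminotransferase went the opposite way. ARO8, which also serves synthesis of phenylalanine and tyrosine, had signals of 1632, 1699.8 and 1547 with leucine and 685, 849 and 694 with phenylalanine and was 2.20-fold lower with phenylalanine (-1.14 ± 0.12, adjusted p = 1.6e-05). No phenylalanine array reached a leucine array, and the phenylalanine level was closest to that with proline (948 ± 32.8) and asparagine (557 ± 84.8). Among the branched-chain aminotransferases, the mitochondrial BAT1, which acts mostly in synthesis, was 277, 288 and 307 with leucine and 645, 475 and 483 with phenylalanine, a difference of 0.87 ± 0.12, adjusted p = 2.4e-04. Leucine was the lowest of the 5 sources for BAT1. The cytosolic BAT2, which acts mostly in breakdown, was 1256, 1438 and 1296 with leucine and 1065, 1019.8 and 1174 with phenylalanine. Its difference did not pass the test (-0.29 ± 0.14, adjusted p = 0.2, 95% interval -0.60 to 0.01), and quantile normalization called it lower. The groups did not overlap for BAT2, and both lay far above asparagine (245 ± 44.6). With methionine BAT2 was 1475, 1560 and 1512.5, above both.

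**Figure D2:**
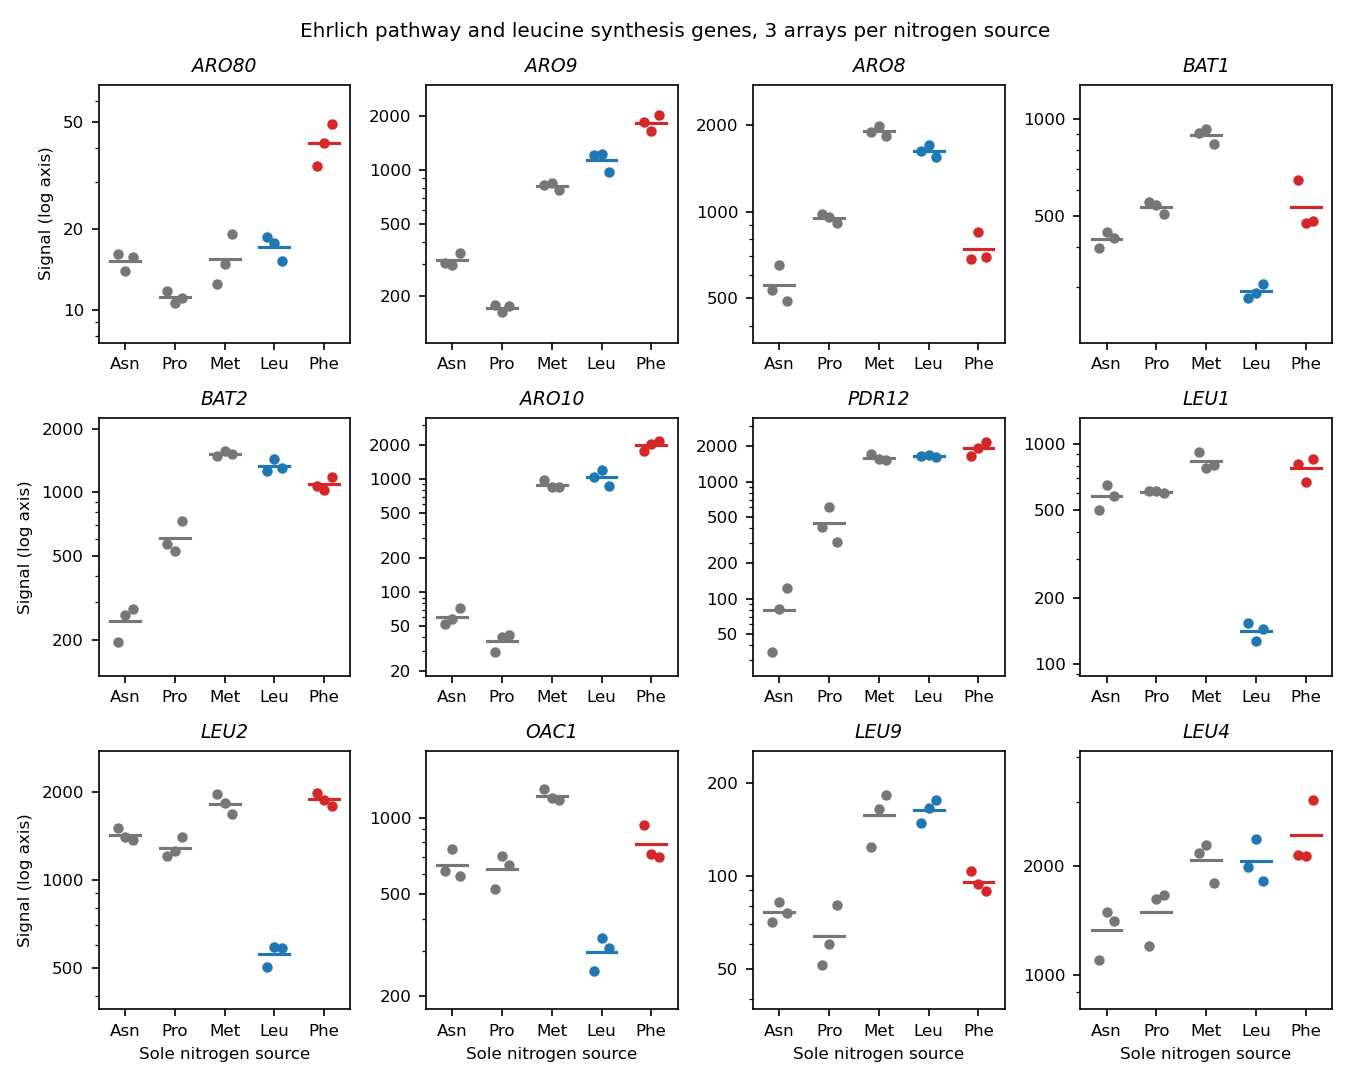
Signal on a log axis (vertical) of 12 genes of the Ehrlich pathway and of leucine synthesis in 5 sole nitrogen sources (horizontal), with 3 arrays as points and their mean as a line. ARO80, ARO9 and ARO10 were highest with phenylalanine, LEU1, LEU2, OAC1 and BAT1 were lowest with leucine, and BAT2, LEU4 and PDR12 did not pass the test.

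Later Ehrlich steps showed more lower than higher calls, as did all genes together (9.96% lower and 5.11% higher). Of the other decarboxylases, PDC5 (0.19 ± 0.20, adjusted p = 0.58), PDC6 (-0.30 ± 0.24, adjusted p = 0.45) and THI3 (-0.25 ± 0.24, adjusted p = 0.54) did not pass, and PDC1, the main pyruvate decarboxylase, was called lower with phenylalanine although its arrays overlapped (-0.62 ± 0.19, adjusted p = 0.047), a call lost under 11 alternatives. Of 12 alcohol and ketone reductase genes, 1 was higher and 4 lower with phenylalanine (median log2 difference -0.15). ADH5, an alcohol dehydrogenase isozyme, was 549, 615 and 626 with leucine and 230.1, 311 and 388 with phenylalanine (-0.97 ± 0.15, adjusted p = 4.8e-04). The methylglyoxal reductase GRE2 (-0.93) and the cinnamyl alcohol dehydrogenase homologue ADH6 (-1.04) were lower too, and quantile normalization raised the lower count to 7. The higher call was lost without phenylalanine 1, phenylalanine 3, leucine 1 or leucine 3. Of 6 aldehyde dehydrogenases, 0 were higher and 2 lower with phenylalanine (median log2 difference 0.16). With median centring 2 were also higher. The lower ones were the mitochondrial ALD5, at 766, 681 and 625 with leucine and 300.4, 475 and 226 with phenylalanine (-1.11 ± 0.20, adjusted p = 0.0019), and the cytosolic ALD6, at 753, 598 and 579 and 387, 409 and 289 (-0.84 ± 0.13, adjusted p = 7.6e-04). ALD2 (0.25 ± 0.21, adjusted p = 0.45) and ALD3 (0.07 ± 0.27, adjusted p = 0.89) did not pass. Of 3 aryl alcohol dehydrogenase genes tested, AAD10 was lower with phenylalanine (-1.02 ± 0.18, adjusted p = 0.0015).

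Of 8 genes of acid export and ester formation, 0 were called by limma, with 1 at an unadjusted p under 0.05, and with median centring 2 were higher. PDR12, the pump that exports weak organic acids such as fusel acids, was 1653, 1696 and 1623 with leucine and 1666, 1939 and 2195 with phenylalanine. Its arrays overlapped (0.21 ± 0.33, adjusted p = 0.72, 95% interval -0.48 to 0.91), and both sources lay above asparagine (79.6 ± 44.3) and proline (439 ± 149). With methionine PDR12 was 1726.5, 1550.5 and 1529, near its level with leucine. WAR1, the activator of PDR12, was 70, 86.9 and 77.3 and 67.6, 63.1 and 59.5 (-0.30 ± 0.14, adjusted p = 0.18).

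Several leucine synthesis genes were higher with phenylalanine, with LEU1 the furthest apart of them. LEU1, isopropylmalate isomerase, had signals of 154, 127 and 145 with leucine and 813, 671 and 856 with phenylalanine. It was 5.49-fold higher (2.46 ± 0.13, adjusted p = 3.3e-08), and leucine was the lowest of the 5 sources, against 579 ± 73.4 with asparagine. LEU2, isopropylmalate dehydrogenase, was 504, 589.9 and 587 with leucine and 1978, 1877 and 1791 with phenylalanine, 3.37-fold higher (1.75 ± 0.10, adjusted p = 1.1e-07). A second LEU2 probe set, of shared sequence, was called in the same direction and another did not pass. OAC1, which carries oxaloacetate and isopropylmalate across the mitochondrial membrane, was 249.9, 336 and 306 and 935, 721 and 701, 2.64-fold higher (1.40 ± 0.15, adjusted p = 2.6e-05). For these 3 genes no array of one source reached the other. They and BAT1 are among the known targets of Leu3, as are LEU4 and ILV2, which did not pass the test.

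LEU9 went the other way and LEU4 did not pass the test. LEU9, the minor isopropylmalate synthase, was lower with phenylalanine, at 148, 166 and 176 with leucine and 104, 94.1 and 89.4 with phenylalanine (-0.77 ± 0.17, adjusted p = 0.0093), a call lost with median centring. LEU4, the major synthase, was 1995, 2374 and 1824 and 2151, 2138 and 3044 (0.23 ± 0.17, adjusted p = 0.41, 95% interval -0.14 to 0.60). The transcript of LEU3 itself was 65, 61.9 and 58.4 with leucine and 73.3, 55.5 and 68.1 with phenylalanine (0.08 ± 0.20, adjusted p = 0.83). Of 6 leucine synthesis genes, 3 were higher and 1 lower with phenylalanine (median log2 difference 0.82). Of 7 isoleucine and valine genes, 1 was higher and 2 lower with phenylalanine (median log2 difference -0.36), but 2 and 0 with median centring and 0 and 3 under quantile normalization. The acetohydroxyacid reductoisomerase ILV5, another Leu3 target, was higher (0.52 ± 0.12, adjusted p = 0.01), a call lost with quantile normalization. ILV6, the regulatory subunit of acetolactate synthase, was 1097, 973 and 1160 with leucine and 609.8, 656 and 710.5 with phenylalanine (-0.71 ± 0.16, adjusted p = 0.0087), and ILV1, threonine deaminase, was lower (-0.60 ± 0.15, adjusted p = 0.018). The ILV6 and ILV1 calls were both lost with median centring, and ILV1 also without phenylalanine 3 or leucine 3. ILV2 (-0.35 ± 0.16, adjusted p = 0.15) and ILV3 (-0.36 ± 0.14, adjusted p = 0.11) did not pass.

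Aromatic amino acid synthesis genes were lower with phenylalanine than with leucine. Of 7 genes of the shikimate pathway and of phenylalanine and tyrosine synthesis, 0 were higher and 5 lower with phenylalanine (median log2 difference -0.63), against a background of 9.96% lower, and 3 were lower with median centring. ARO3, the DAHP synthase that phenylalanine inhibits, was 209, 219.7 and 213 with leucine and 90.8, 114 and 91.1 with phenylalanine (-1.13 ± 0.13, adjusted p = 5.5e-05). ARO4, the DAHP synthase that tyrosine inhibits, was 985, 1053 and 869 and 421, 482 and 655 (-0.92 ± 0.15, adjusted p = 9.6e-04). TYR1, prephenate dehydrogenase, was 115, 109 and 129 and 50.8, 60 and 47.4 (-1.16 ± 0.19, adjusted p = 7.9e-04). For all 3 the groups did not overlap and leucine had the highest mean of the 5 sources. Asparagine gave 129.6 ± 16.2, 457 ± 70 and 89.2 ± 4.56, and phenylalanine was the lowest of the 5 for ARO3 and TYR1. ARO1, the pentafunctional shikimate enzyme, differed by -0.63 ± 0.12, adjusted p = 0.0035, a call lost with median centring. With phenylalanine ARO1 was 650.5, 848 and 709, not below its signals of 523, 589 and 666 with asparagine. PHA2, prephenate dehydratase of the last step to phenylalanine, was called at adjusted p = 0.036 but lost the call under 14 alternatives. ARO2 (-0.46 ± 0.15, adjusted p = 0.057) and ARO7 (-0.38 ± 0.17, adjusted p = 0.16) did not pass.

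Genes of the tryptophan branch were lower as well. Of 5 TRP genes, 0 were higher and 4 lower with phenylalanine (median log2 difference -1.35). TRP2, a subunit of anthranilate synthase, was 601, 541 and 615 with leucine and 194, 245 and 188 with phenylalanine, 2.82-fold lower (-1.49 ± 0.13, adjusted p = 3.0e-06). TRP3, the other subunit, was 463, 489 and 464 and 147, 169.7 and 184, 2.84-fold lower (-1.51 ± 0.12, adjusted p = 1.4e-06). TRP4 (-1.35) and TRP5 (-0.61) were lower as well. Leucine was the highest of the 5 sources for TRP2 and TRP3, with methionine next at 377 ± 29.5 and 279 ± 22.

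Synthesis genes of amino acids unrelated to either source were lower with phenylalanine than with leucine too. Of 7 histidine synthesis genes, 0 were higher and 6 lower with phenylalanine (median log2 difference -0.91), and of 11 lysine synthesis genes and carriers, 0 were higher and 7 lower with phenylalanine (median log2 difference -0.98). HIS5, histidinol-phosphate aminotransferase, was 440, 452 and 461 with leucine and 127, 144 and 123 with phenylalanine, 3.45-fold lower (-1.78 ± 0.13, adjusted p = 7.8e-07). With asparagine HIS5 was 197 ± 21, between its levels with phenylalanine and leucine. HIS7 (-1.57) and HIS3 (-1.13) were lower, and a second HIS3 probe set gave a larger difference in the same direction. LYS1, saccharopine dehydrogenase, was 910.4, 831 and 799.9 with leucine and 326, 349.6 and 271 with phenylalanine, 2.70-fold lower (-1.43 ± 0.12, adjusted p = 2.2e-06). With median centring 5 histidine genes and 7 lysine genes were lower, and 0 and 1 higher.

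Of 8 arginine synthesis genes, 0 were higher and 3 lower with phenylalanine (median log2 difference -0.41). They were the acetyltransferase ARG7, at 789, 814 and 770.5 with leucine and 185, 240.1 and 226 with phenylalanine (-1.87 ± 0.17, adjusted p = 3.0e-06), the ornithine carrier ORT1, at 302, 308 and 341 and 65.9, 103 and 124 (-1.75 ± 0.19, adjusted p = 2.0e-05), and the acetylglutamate synthase ARG2 (-0.97 ± 0.11, adjusted p = 4.9e-05). With asparagine ARG7 was 237 ± 71.5, near its level with phenylalanine. Of 4 vitamin B6 genes, 0 were higher and 2 lower with phenylalanine (median log2 difference -1.82). SNO1 and SNZ1, which encode a glutamine amidotransferase and its synthase partner, are usually induced in starved or stationary cells, and SNO1 had the most negative log2 difference of all probe sets tested. It was 495, 415 and 506 with leucine and 34.4, 60.6 and 92.5 with phenylalanine, 8.14-fold lower (-3.03 ± 0.30, adjusted p = 8.3e-06). SNZ1 was 639, 694 and 758 and 71.5, 99.3 and 164, 6.60-fold lower (-2.72 ± 0.21, adjusted p = 1.3e-06). With phenylalanine both were near their level with asparagine (60.4 ± 5.46 and 117 ± 13.3), and with methionine they stood at 316 ± 31.5 and 535 ± 31.9. Many of these genes are known targets of Gcn4. The GCN4 transcript, whose product is controlled mainly by translation, was 1798, 1957 and 1760.5 with leucine and 2165, 2718 and 1865 with phenylalanine and did not pass (0.28 ± 0.12, adjusted p = 0.15).

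Of 5 asparagine and aspartate genes, 0 were higher and 4 lower with phenylalanine (median log2 difference -0.63), led by the cytosolic aspartate aminotransferase AAT2, at 1449, 1539 and 1495 with leucine and 1004, 573 and 774 with phenylalanine (-0.97 ± 0.16, adjusted p = 7.6e-04). With median centring 1 was lower. Of 24 genes of sulfate assimilation and methionine synthesis, 1 was higher and 8 lower with phenylalanine (median log2 difference -0.26), and 4 were lower with median centring. The higher call was lost without phenylalanine 3 or any 1 leucine array. STR2, cystathionine gamma-synthase, was 406, 426 and 398 with leucine and 127, 156 and 148 with phenylalanine, 2.86-fold lower (-1.52 ± 0.13, adjusted p = 1.8e-06), and HOM3, aspartate kinase, 2.26-fold lower (-1.18 ± 0.16, adjusted p = 1.6e-04). Of 6 regulators of these genes, the activator MET4 was lower (-0.69 ± 0.13, adjusted p = 0.0021). Of 15 purine synthesis and glycine cleavage genes, 0 were higher and 3 lower with phenylalanine (median log2 difference -0.23), among them ADE8 (-0.74 ± 0.10, adjusted p = 1.1e-04). Of 7 genes from tryptophan to NAD, 0 were higher and 1 lower with phenylalanine (median log2 difference -0.07). That call was made without phenylalanine 3 but in none of the other leave-one-out fits, and 2 were higher and 0 lower with median centring. Of 9 thiamine genes 0 were called by limma, with 0 at an unadjusted p under 0.05.

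**Figure D3:**
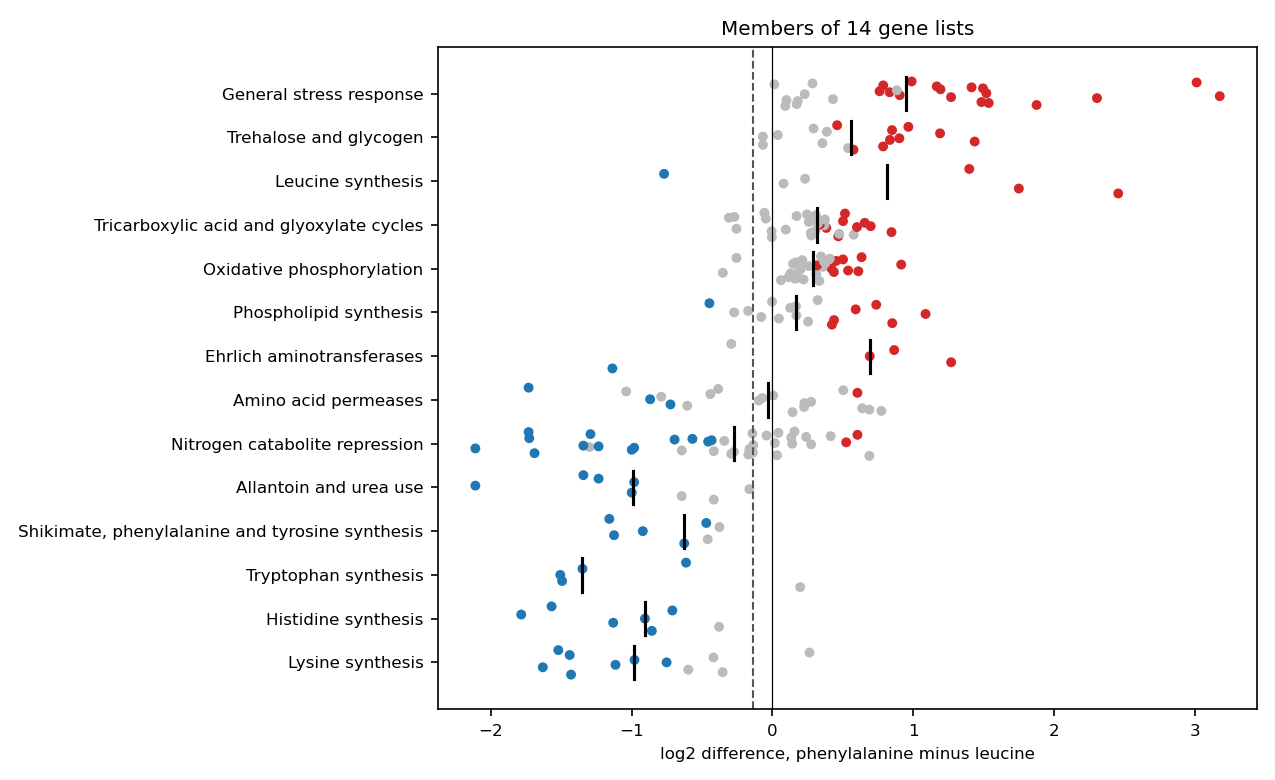
Log2 difference, phenylalanine minus leucine (horizontal), of each tested member of 14 gene lists, coloured by call (red higher, blue lower, grey not called), with the list median as a black bar and the median of all probe sets tested (-0.14) as a dashed line. The stress list had 17 higher and 0 lower members, and the histidine list 0 higher and 6 lower.

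Genes for poor nitrogen sources were lower with phenylalanine in part. Nitrogen catabolite repression keeps such genes low on rich sources through GATA factors, and of its 37 genes, 2 were higher and 13 lower with phenylalanine (median log2 difference -0.27), with 1 and 12 under quantile normalization and 6 and 9 with median centring. The higher count was 1 without leucine 1 or leucine 3. Of 8 allantoin and urea genes, 0 were higher and 5 lower with phenylalanine (median log2 difference -0.99), and the same number were lower under both other scalings. DAL5, the allantoate permease, was 716, 822 and 808 with leucine and 151, 148 and 265 with phenylalanine, 4.32-fold lower (-2.11 ± 0.18, adjusted p = 2.2e-06). DAL3, ureidoglycolate lyase, was 1099, 1289.8 and 1174 and 525, 667 and 595, 2.00-fold lower (adjusted p = 3.0e-05), and DUR3, the urea transporter, 559.5, 476 and 553 and 139.9, 313 and 206 (-1.34 ± 0.21, adjusted p = 5.3e-04). For these 3 genes the phenylalanine level lay between that with asparagine (74 ± 7.5, 116 ± 8.55 and 66.2 ± 4.55) and that with leucine. One further DAL5 probe set was called lower and another did not pass.

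Arginase CAR1, which opens arginine breakdown, was 1011, 1330 and 1128 with leucine and 377, 405 and 296 with phenylalanine, 3.23-fold lower (-1.69 ± 0.13, adjusted p = 1.3e-06). Its phenylalanine level lay between those with proline (327 ± 26) and asparagine (381 ± 19.7). The GABA permease UGA4 was 42.4, 40.1 and 50.4 and 12.2, 17.1 and 11.2 (-1.73 ± 0.22, adjusted p = 9.9e-05). Of the ammonium permeases, MEP2 was 1248, 1388 and 1358 with leucine and 759, 814 and 897 with phenylalanine (-0.70 ± 0.14, adjusted p = 0.0036), and MEP3 356, 341 and 345 and 246, 236 and 222 (-0.57 ± 0.12, adjusted p = 0.0065). Both calls were lost with median centring, and both levels were well above those with asparagine (36.6 ± 7.82 and 28.3 ± 2.41). ADY2, a plasma membrane acetate transporter also linked to ammonium export, went the other way, at 119, 106 and 68.1 with leucine and 431, 479 and 246 with phenylalanine, 3.90-fold higher (1.96 ± 0.23, adjusted p = 5.5e-05). Of 9 nitrogen regulators, 0 were higher and 3 lower with phenylalanine (median log2 difference -0.39), and the count was 1 under either other scaling and without leucine 3. GLN3, a GATA activator, was 32.5, 33.8 and 32.1 with leucine and 12.9, 15.9 and 10.4 with phenylalanine (-1.35 ± 0.23, adjusted p = 0.0011), a call kept under every alternative that tested it. The GATA repressor DAL80 was 131, 125 and 126 and 41.5, 44.7 and 74.2, without overlap, and did not pass (-1.30 ± 0.44, adjusted p = 0.062).

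Most amino acid permeases did not pass the test. Of 20 amino acid permeases, 1 was higher and 3 lower with phenylalanine (median log2 difference -0.03), against backgrounds of 5.11% and 9.96%. The balance turned to 4 higher and 2 lower with median centring, and the counts were 1 and 6 without phenylalanine 2 and 4 and 2 without phenylalanine 3. The general permease GAP1 was 2103, 2067 and 2150.4 with leucine and 2520, 2491 and 2640 with phenylalanine (0.28 ± 0.12, adjusted p = 0.14, 95% interval 0.02 to 0.53). AGP1 (0.14 ± 0.15, adjusted p = 0.56), BAP2 (0.23 ± 0.17, adjusted p = 0.41), BAP3 (-0.61 ± 0.24, adjusted p = 0.1), GNP1 (-0.10 ± 0.23, adjusted p = 0.82), TAT1 (0.50 ± 0.16, adjusted p = 0.051) and TAT2 (-0.39 ± 0.15, adjusted p = 0.11), which carry branched-chain, aromatic or broader sets of amino acids, did not pass. The histidine permease HIP1 was lower (-0.87 ± 0.17, adjusted p = 0.0028) and the proline permease PUT4 higher (0.60 ± 0.14, adjusted p = 0.0087), the latter lost with quantile normalization. Of 6 peptide uptake genes, 0 were higher and 3 lower with phenylalanine (median log2 difference -0.56). The 3 were OPT2, CUP9 and DAL5, and DAL5 is also counted among the allantoin and nitrogen catabolite repression genes. The CUP9 call was lost under both other scalings, where the lower count was 2. OPT2, an oligopeptide transporter, was 721, 405 and 666 with leucine and 134, 200.1 and 199.8 with phenylalanine, 3.31-fold lower (-1.73 ± 0.22, adjusted p = 8.6e-05). PTR2, the di- and tripeptide transporter, was 983, 750.2 and 931 and 1097, 385 and 648 and did not pass (-0.44 ± 0.27, adjusted p = 0.3). Of 9 genes of the amino acid sensor, SSY5 alone was called, lower with phenylalanine (-0.56 ± 0.15, adjusted p = 0.026), a call lost under both other scalings. Of 5 genes of central nitrogen metabolism, 1 was higher and 1 lower with phenylalanine (median log2 difference 0.02). Neither call was made without phenylalanine 3, leucine 1 or leucine 3. These were glutamine synthetase GLN1 (0.52 ± 0.14, adjusted p = 0.027) and glutamate synthase GLT1 (-0.46 ± 0.14, adjusted p = 0.039), of which GLN1 overlapped between the sources and both calls were lost with quantile normalization, while GDH1 (-0.01 ± 0.13, adjusted p = 0.96) and GDH2 (0.02 ± 0.14, adjusted p = 0.95) did not pass.

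Stress genes were higher with phenylalanine than with leucine. Of 26 general stress genes, 17 were higher and 0 lower with phenylalanine (median log2 difference 0.95), against a background of 5.11% higher, and 19 were higher under both other scalings. HSP30, a plasma membrane heat shock protein, was 45.2, 46.2 and 72.6 with leucine and 681, 508 and 326 with phenylalanine, 9.06-fold higher (3.18 ± 0.23, adjusted p = 7.8e-07). YGP1, a secreted glycoprotein of starved cells, was 99.8, 96.4 and 106 and 579, 1175 and 789, 8.08-fold higher (3.01 ± 0.18, adjusted p = 1.1e-07). HSP12, a membrane-associated stress protein, was 577, 586 and 420 and 1992, 2759.9 and 3126, 4.95-fold higher (2.31 ± 0.17, adjusted p = 7.8e-07), and DDR2 869.8, 737 and 757 and 2141, 3258 and 3448 (1.88 ± 0.17, adjusted p = 3.0e-06). In these 4 genes leucine had the lowest mean of the 5 sources and no phenylalanine array overlapped it. Phenylalanine was next above leucine for HSP30 and YGP1, and for HSP12 and DDR2 it was above methionine, with HSP12 at 3761 ± 546 with asparagine, 3287 ± 235 with proline and 2258 ± 151 with methionine. MSC1 (1.52 ± 0.13, adjusted p = 2.1e-06) and the Hsp70 gene SSA4 (1.17 ± 0.15, adjusted p = 1.3e-04) were higher as well. Of 17 chaperone genes, 2 were higher and 0 lower with phenylalanine (median log2 difference -0.01), and HSP104 did not pass (0.43 ± 0.14, adjusted p = 0.056). The higher chaperone count was 4 without phenylalanine 3 and 5 with median centring.

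Genes of reserve carbohydrates moved the same way. Of 16 trehalose and glycogen genes, 9 were higher and 0 lower with phenylalanine (median log2 difference 0.56). Glycogen synthase GSY2 was 140.4, 128 and 141 with leucine and 254, 275 and 236 with phenylalanine, 1.87-fold higher (0.90 ± 0.11, adjusted p = 6.4e-05). Phosphoglucomutase PGM2 was 118, 80.8 and 97.2 and 201, 286 and 193 (1.19 ± 0.19, adjusted p = 7.1e-04), and the trehalose synthase subunits TPS2 (0.85) and TSL1 (0.97) were higher. The counts were 10 with quantile normalization and 13 with median centring.

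**Figure D4:**
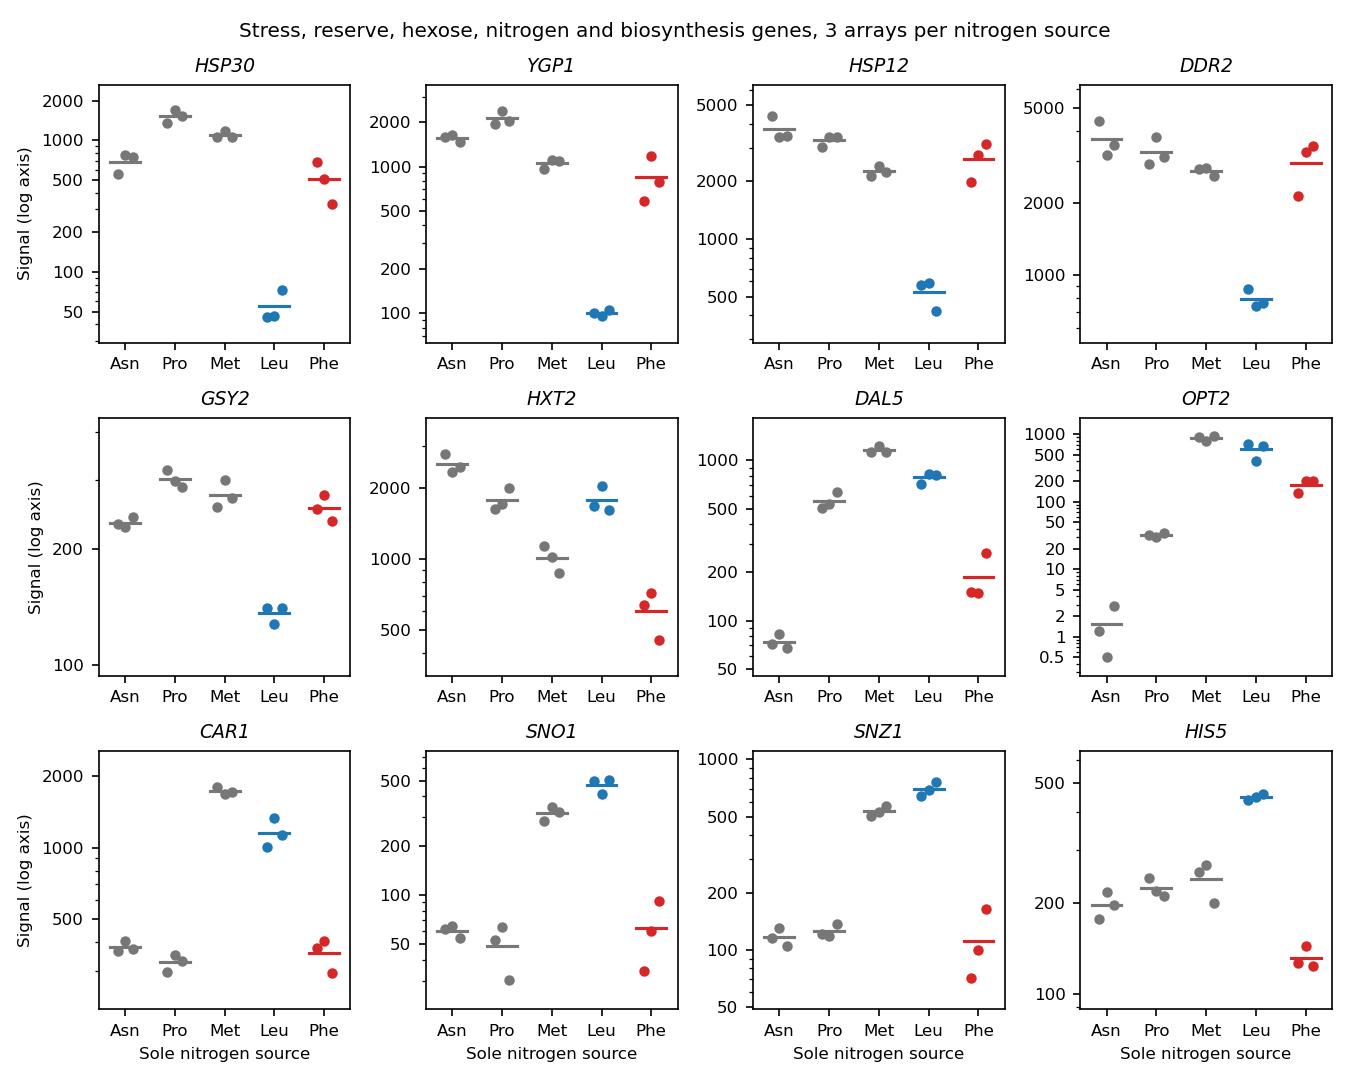
Signal on a log axis (vertical) of 12 genes in 5 sole nitrogen sources (horizontal), with 3 arrays as points and their mean as a line. The 4 stress genes and GSY2 were lowest with leucine, HXT2 was lowest with phenylalanine, and SNO1, SNZ1 and HIS5 were highest with leucine.

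Of 30 tricarboxylic acid cycle and glyoxylate genes, 9 were higher and 0 lower with phenylalanine (median log2 difference 0.31), and of 34 oxidative phosphorylation genes, 9 were higher and 0 lower with phenylalanine (median log2 difference 0.29). ICL1, isocitrate lyase of the glyoxylate cycle, was 264, 277 and 222 with leucine and 473, 489.6 and 408 with phenylalanine (0.85 ± 0.12, adjusted p = 2.5e-04). KGD1, a subunit of 2-oxoglutarate dehydrogenase, was 895, 896 and 860.4 and 1452, 1259 and 1612 (0.70 ± 0.11, adjusted p = 5.6e-04), and QCR9 of the cytochrome bc1 complex 1222, 1198 and 1242 and 1716, 1799.5 and 2199.6 (0.63 ± 0.11, adjusted p = 0.0015). The counts of 9 and 9 became 6 and 4 under quantile normalization, and 18 and 17 under median centring. Leaving out single arrays changed the cycle count to 14 higher and 1 lower (phenylalanine 2), 5 (phenylalanine 3), 4 (leucine 1) and 3 (leucine 3), and the phosphorylation count to 5 (leucine 1) and 4 (leucine 3). Of 16 glycolysis genes, 5 were higher and 0 lower with phenylalanine (median log2 difference 0.36), and 10 were higher with median centring. They were ENO1 (0.69), TDH1 (0.63), HXK1 (0.61), TPI1 (0.50) and PFK1 (0.42), and the ENO1 probe set has shared sequence. Of 11 retrograde genes, 1 was higher and 1 lower with phenylalanine (median log2 difference -0.11), or 2 and 0 with median centring and 0 and 0 under quantile normalization or without phenylalanine 2, leucine 1 or leucine 3. CIT2, their best known target, was 1064, 1209 and 1284 and 1105, 1528 and 1743 (0.28 ± 0.16, adjusted p = 0.28).

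Genes of the hexose transport list, which also holds the glycerol symporter STL1, went both ways. Of 13 tested, 2 were higher and 3 lower with phenylalanine (median log2 difference -0.09). One was higher with quantile normalization and without phenylalanine 2, phenylalanine 3, leucine 1 or leucine 3. HXT2, a high-affinity transporter, was 1683, 2033 and 1609 with leucine and 639, 718 and 456 with phenylalanine, 2.98-fold lower (-1.57 ± 0.16, adjusted p = 1.4e-05), the lowest of the 5 sources. HXT3, of low affinity, was 186, 163 and 547 and 92.5, 85.8 and 101 (-1.46 ± 0.32, adjusted p = 0.0074), where leucine 3 stood above the others. The glycerol symporter STL1 was lower (-1.24 ± 0.21, adjusted p = 9.4e-04), and HXT6, whose probe set has shared sequence, was higher (0.59 ± 0.12, adjusted p = 0.0046), a call lost with quantile normalization.

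Among lipid genes, of 17 of phospholipid synthesis, 6 were higher and 1 lower with phenylalanine (median log2 difference 0.17), and the lower call was lost under both other scalings and in all leave-one-out fits but that without phenylalanine 2. INO1, inositol phosphate synthase, was 227, 201 and 240.2 with leucine and 640.4, 411 and 401 with phenylalanine, 2.13-fold higher (1.09 ± 0.16, adjusted p = 4.1e-04). The methyltransferases of phosphatidylcholine synthesis were higher, OPI3 at 699.7, 678 and 702 and 1235, 1074 and 1164 (0.74 ± 0.10, adjusted p = 1.3e-04) and CHO2 at 450.3, 457 and 359 and 678, 712 and 899 (0.85 ± 0.18, adjusted p = 0.0067). The inositol transporter ITR1 was higher (0.59 ± 0.10, adjusted p = 7.6e-04). These are known targets of the inositol-sensitive activators Ino2 and Ino4, and leucine was the lowest of the 5 sources for INO1, OPI3 and ITR1. Of 27 ergosterol genes, 1 was higher and 4 lower with phenylalanine (median log2 difference -0.13), among them ERG7, lanosterol synthase (-0.82 ± 0.12, adjusted p = 4.7e-04). With median centring 2 ergosterol genes were higher and 1 lower, and the higher call was lost without leucine 1 or leucine 3. Of 11 fatty acid synthesis genes 0 were called by limma, with 3 at an unadjusted p under 0.05 and 4 higher without phenylalanine 2, and of 19 of beta oxidation 2 were higher and 0 lower with phenylalanine (median log2 difference 0.09). The latter count was 4 with median centring, 1 without phenylalanine 1, leucine 2 or leucine 3, and 0 without leucine 1.

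Metal genes went both ways, at shares near the background. Of the iron list 20% were called and of the copper list 14.3%, against 15.1% of all genes. Of 25 iron genes, 2 were higher and 3 lower with phenylalanine (median log2 difference -0.16). The lower count was 1 without phenylalanine 3, leucine 2 or leucine 3, and with median centring 3 were higher and 1 lower. The ferric reductase FRE4 was 18.8, 14.7 and 12.9 with leucine and 48.2, 63.4 and 43.1 with phenylalanine (1.74 ± 0.25, adjusted p = 2.5e-04), ISU2, an iron-sulfur scaffold, was higher too (1.03 ± 0.15, adjusted p = 2.5e-04), and the siderophore transporter ENB1 was lower (-0.94 ± 0.16, adjusted p = 1.0e-03). The copper transporter CTR3 was 49.7, 52.8 and 47.6 and 132, 104 and 151 (1.35 ± 0.19, adjusted p = 2.1e-04), against 895 ± 256 with asparagine and 907 ± 39.2 with proline, so both sources were far below those. Methionine was too, with CTR3 at 37.2, 36.9 and 38.8. Of 18 antioxidant genes, 4 were higher and 1 lower with phenylalanine (median log2 difference 0.15), with OYE3 (1.09 ± 0.16, adjusted p = 2.7e-04) and SOD2 (0.62 ± 0.10, adjusted p = 8.9e-04) higher and the peroxiredoxin AHP1 lower (-0.91 ± 0.20, adjusted p = 0.0068). Of 19 multidrug export genes, 0 were higher and 4 lower with phenylalanine (median log2 difference -0.28). With median centring 1 was higher and 2 lower. ATR1, an exporter that confers aminotriazole resistance, was 381, 416 and 423 with leucine and 94.5, 137 and 94.1 with phenylalanine, 3.80-fold lower (-1.93 ± 0.17, adjusted p = 3.2e-06).

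Of 28 cell wall genes, 5 were higher and 0 lower with phenylalanine (median log2 difference 0.25). The higher count was 3 with quantile normalization or without leucine 1, 2 without leucine 3 and 10 with median centring, and 2 were lower without phenylalanine 1. CWP1, a wall mannoprotein, was 55.1, 44.7 and 53.5 with leucine and 192, 159.8 and 189.8 with phenylalanine, 3.53-fold higher (1.82 ± 0.15, adjusted p = 1.8e-06), and SCW4, a wall glucanase, 1.79-fold higher. TEC1, a factor of filamentous growth, was higher (0.91 ± 0.16, adjusted p = 0.0012). Of 27 cytosolic ribosomal protein genes, 2 were higher and 1 lower with phenylalanine (median log2 difference 0.26), but 0 higher and 1 lower under quantile normalization and 11 higher and 0 lower under median centring, so their direction depends on the scaling. Leaving out 1 array gave 0 higher (leucine 3) to 8 (leucine 2), with 7 without phenylalanine 1, 5 without phenylalanine 2 and 1 without leucine 1. Of 32 mitochondrial ribosomal protein genes, 0 were higher and 4 lower with phenylalanine (median log2 difference -0.22), of 26 ribosome assembly genes 0 were higher and 3 lower with phenylalanine (median log2 difference -0.17), and of 32 proteasome genes 0 were higher and 3 lower with phenylalanine (median log2 difference -0.20). These shares were near the background of 9.96% lower, and the lower counts were 1, 0 and 0 with median centring. The mitochondrial count was 2 without phenylalanine 3, leucine 1 or leucine 2 and 1 without leucine 3. The assembly count was 5 without phenylalanine 1, and the proteasome count was 5 without phenylalanine 1 or phenylalanine 2 and 1 without leucine 1 or leucine 3.

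The a pheromone genes were higher with phenylalanine, MFA1 at 943, 1415 and 1268 and 1609.8, 2271 and 3156 (0.92 ± 0.24, adjusted p = 0.02) and MFA2 at 905, 1023 and 1131 and 1674, 1431 and 3636 (1.02 ± 0.30, adjusted p = 0.038). Both calls were lost without phenylalanine 3 and without leucine 1. Over all alternatives the MFA1 call was lost under 6 and the MFA2 call under 13. Another MATa marker, STE6, was called lower, at 112, 92.8 and 141 with leucine and 82.2, 80.5 and 67.6 with phenylalanine. The STE6 call was lost under 9 alternatives. Both MFA1 probe sets have shared sequence, and the second did not pass. Of the MATalpha markers, MF(ALPHA)1 was 15.7, 18.1 and 19.4 and 74.4, 37.7 and 48.5 (1.54 ± 0.26, adjusted p = 9.4e-04) and STE3 14, 20.7 and 17.1 and 44, 20.7 and 38 (0.93 ± 0.25, adjusted p = 0.024). STE3 overlapped between the sources, and its call was lost under 8 alternatives.

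Some of the largest differences were in genes of none of these lists. Higher with phenylalanine were GND2, a phosphogluconate dehydrogenase, at 24.9, 24.6 and 19.2 with leucine and 62.3, 137 and 69.1 with phenylalanine (1.88 ± 0.22, adjusted p = 5.2e-05), and RGI1, a gene of respiratory growth, at 154, 129 and 110.1 and 344, 608 and 471 (1.83 ± 0.20, adjusted p = 2.0e-05). FMP16 (2.05 ± 0.28, adjusted p = 2.1e-04) and SPG1 (1.91 ± 0.25, adjusted p = 1.5e-04), named for mitochondrial and stationary phase roles, were higher too. GND2, FMP16 and SPG1 were lower with both sources than with asparagine (340 ± 20.2, 880 ± 158 and 627 ± 136). RGI1 with phenylalanine was near its level with asparagine (467 ± 102). YNL194C, a membrane protein of the eisosome, was at least 4.16-fold higher, since its leucine signals of 11.4, 6 and 7.1 averaged below 10.0, the 25th percentile of signal. With asparagine YNL194C was 276 ± 6.22, above both sources. Lower with phenylalanine were SDT1, a pyrimidine nucleotidase, at 539, 638 and 525 with leucine and 75.1, 143 and 114 with phenylalanine (-2.40 ± 0.18, adjusted p = 1.0e-06), and SRY1, a hydroxyaspartate dehydratase, at 656, 651 and 718 and 133, 131 and 295 (-1.97 ± 0.25, adjusted p = 8.4e-05). The uncharacterised YNR068C (-2.46 ± 0.27, adjusted p = 2.9e-05) and YLR152C (-2.15 ± 0.18, adjusted p = 1.8e-06) were lower, and the kinetochore gene CTF13 was at least 3.10-fold lower with phenylalanine signals of 5.3, 10.6 and 8.7.

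Set beside all 5 sources, leucine had the lowest mean of the 5 for 151 of the 275 genes that were higher with phenylalanine, and phenylalanine the highest for 135. Of the 536 genes that were lower with phenylalanine, leucine had the highest mean for 344 and phenylalanine the lowest for 331. The genes were chosen by this contrast, which favours both ranks, so these counts describe them and test nothing.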

How the data were processed

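Transcripts of 15 samples were measured on Affymetrix yeast arrays, 1 array each. The deposited intensity values are linear signals that the authors made with MAS5, per the submitters' processing notes. The version of MAS5 and its target signal were not given in the sources used here. Of 9335 rows, 60 controls were left out. A probe set was tested where its signal passed the array's 25th percentile on at least 3 of 15 arrays. Signals were floored at 2.1 (the 10th percentile), put on the log2 scale and fitted with limma 3.58.1 in R 4.3.3, with 1 mean per nitrogen source over all 15 arrays, a variance trend and Benjamini-Hochberg adjustment over all 7445 tested. Calls use an adjusted p under 0.05. Folds against a group averaging under a signal of 10 are lower bounds. Gene names came from the platform annotation. Of 9275 probe sets 6504 name 1 gene, 328 several and 2443 none. A gene is represented by its probe set of highest mean signal. Named genes are the 15 largest differences each way among called genes without overlap, a list of key genes and up to 4 genes of smallest adjusted p in each of 58 gene lists. Some genes belong to more than 1 list. The members, lists and tests were chosen with earlier results of these data known. The script was tested on simulated data. The number of arrays limits the precision. Alternatives changed the normalization, floor, filter, probe sets, arrays and covariates.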

Additional observations from a re-analysis of the deposited data

How the results depend on the processing

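Of 260 named genes, 0 of the 171 called changed sign under any alternative tried, while 22 that were not called changed sign under at least 1, never with a call there. Of the 171, 97 kept the call under every alternative but the 2-fold minimum. The number of probe sets called was 959, 323 higher and 636 lower with phenylalanine. With quantile normalization 352 were lower, and with median centring 688 were higher and 271 lower. A fit on only the 6 arrays, where the spread comes from fewer samples, called 293 (109 higher, 184 lower). The cause of this drop was not tested. The 2-fold minimum left 238 (83 and 155). The hybridisation control signal as a covariate left 503 (201 and 302). Dropping the 3 arrays whose ribosomal RNA controls exceeded a signal of 50 (proline 3, leucine 3 and methionine 2) left 415 calls (153 and 262). Leaving out 1 array at a time gave 545 to 1509 calls, 191 to 432 higher and 354 to 1077 lower. The count was 1509 without phenylalanine 2, 568 without leucine 1 and 545 without leucine 3. The cause was not tested for the covariate, ribosomal RNA or left-out array. The actin ratio as a covariate gave 701, and the SPT15 ratio, chosen after seeing the data, 781. Same-numbered arrays deviated together at 0.0505, 0.0998 and 0.109, so the numbers were not taken as pairs, and a fit with the replicate number as a block called 925 (313 and 612). Promoter motifs were not run. Dim probe sets limit small differences.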

Other observations

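The remaining gene groups gave these counts between phenylalanine and leucine. Of 6 ammonium permease and export genes, 1 was higher and 3 lower with phenylalanine (median log2 difference -0.15), but 2 and 0 with median centring. Of 8 genes for use of proline, arginine and GABA, 1 was higher and 2 lower with phenylalanine (median log2 difference -0.09), with 2 higher under median centring or without phenylalanine 2 and 0 under quantile normalization. Of 5 Ehrlich aminotransferase genes with their activator, 3 were higher and 1 lower with phenylalanine (median log2 difference 0.69), and of 5 keto acid decarboxylase genes, 1 was higher and 1 lower with phenylalanine (median log2 difference -0.25), the lower call being made in the leave-one-out fit without phenylalanine 3 and in none of the others. Of 7 copper genes, 1 was higher and 0 lower with phenylalanine (median log2 difference 0.10), and of 12 phosphate genes, 0 were higher and 1 lower with phenylalanine (median log2 difference -0.25). Of 10 vacuolar protease genes, 0 were higher and 1 lower with phenylalanine (median log2 difference 0.16), but 3 and 0 with median centring, 1 and 0 with quantile normalization, and 0 and 0 without phenylalanine 3 or any 1 leucine array. Of 9 flocculation and invasive growth genes, 2 were higher and 0 lower with phenylalanine (median log2 difference 0.30), with 1 higher in each leave-one-out fit but that without phenylalanine 3. Of 9 sporulation genes, 0 were higher and 1 lower with phenylalanine (median log2 difference 0.19). Of 7 genes of MATa cells, 2 were higher and 1 lower with phenylalanine (median log2 difference 0.32), and of 4 of MATalpha cells, 2 were higher and 0 lower with phenylalanine (median log2 difference 0.70). The MATa counts were 0 and 0 without phenylalanine 3 or leucine 1, and the MATalpha count was 1 without phenylalanine 1, phenylalanine 3, leucine 1 or leucine 3. Without phenylalanine 2 the counts were 2 higher and 1 lower for copper and 0 and 2 for both phosphate and zinc. By limma 0 of 10 zinc genes and 0 of 2 phenolic acid genes were called, with 2 and 0 at an unadjusted p under 0.05.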
